A study of Homo sapiens with 18 samples.

Results

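The 9 genes described are transcriptional targets or direct partners of the tumour suppressor p53: MDM2, MDM4, GADD45A, SESN1, TP53INP1, ZMAT3, XPC, DDB2 and TP53I3. They were chosen by name, with earlier results of these data known. Each was read from the probe set with the highest mean among those annotated with that single gene symbol, and its other probe sets served as a check. All 9 passed the filter on low values, a group mean of at least 4 on the log2 scale in at least 1 group, among 10717 genes that passed of 19775 with such a probe set. The cells were HK-2, an immortalised human line of proximal tubular epithelium, grown in 6 groups of 3 biological replicates: CsA at 12, 24 and 48 h and vehicle control at 12, 24 and 48 h. CsA is the usual short form of cyclosporin A, an immunosuppressant known to affect the kidney. The labels give no dose, and they give a single line from a single laboratory, so the replicates are cultures of that line and not donors. RNA was measured on 18 Affymetrix arrays, and values are log2 GCRMA values.

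p53 is a transcription factor that is kept low by MDM2, a ubiquitin ligase that p53 itself switches on, and by its relative MDM4. After DNA damage or other stress p53 accumulates and raises genes for cell cycle arrest, DNA repair, redox control and cell death. HK-2 cells were immortalised with papillomavirus E6 and E7 genes, and E6 directs p53 to degradation, and both treatments share this background.

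Promoter letters are shown for the members in which a search found a p53-like site, and for TP53I3, the member that differed in the same direction in every replicate pair. RefSeq sequences (GRCh38.p14) upstream of the transcript start were used for 7 members, as 14 windows of 250 bases, several of which overlap. No window was available for GADD45A, and TP53INP1 was left out of the counts of members. The windows of all genes were not limited in this way. The p53 response element is written as a pair of half-sites of 10 letters each. A window was counted when both half-sites kept their central C and G, lay at most 13 bases apart and held at most 3 mismatches in 20 letters; the half-site reads the same on both strands. This held for 4 of the 14 windows, against 10.6% of 34943 windows of all genes. An exact half-site was found in 1 of the 14, a window of SESN1, against 5.6% of all windows. A match is a description of letters, not evidence of binding. Below, capitals mark the half-sites and all sequences read 5′ to 3′ on the strand of the gene. The MDM2 window is chr12:68808767-68809016 on the plus strand, upstream of an internal start of the gene, with a site of 2 mismatches. A start a few bases further on shares this site.
MDM2 window: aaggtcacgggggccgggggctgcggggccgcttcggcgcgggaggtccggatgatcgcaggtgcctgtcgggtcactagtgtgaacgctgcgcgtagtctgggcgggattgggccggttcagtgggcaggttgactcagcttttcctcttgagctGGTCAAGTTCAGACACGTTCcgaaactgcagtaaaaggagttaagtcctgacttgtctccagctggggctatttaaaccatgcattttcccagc
The SESN1 site, at chr6:109009013-109009042 on the minus strand, has 3 mismatches and no spacer.
SESN1 site: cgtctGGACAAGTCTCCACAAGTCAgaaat
The ZMAT3 site, at chr3:179071867-179071892 on the minus strand, has 3 mismatches and a spacer of 6 bases.
ZMAT3 site: GGGCCTGCTCcgccaaGCACATGCGC
The TP53I3 window, chr2:24084835-24085084 on the minus strand, held no such pair, which says only that these letters are not in this stretch.
TP53I3 window: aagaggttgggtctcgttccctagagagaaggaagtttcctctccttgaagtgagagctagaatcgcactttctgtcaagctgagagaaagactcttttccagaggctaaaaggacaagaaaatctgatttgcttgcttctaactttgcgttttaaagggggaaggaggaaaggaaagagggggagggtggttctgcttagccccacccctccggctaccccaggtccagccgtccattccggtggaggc

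Facts of the whole set of arrays bear on what follows. Replicate 3 stood apart. The SD over genes of its difference from either other replicate of the group was 0.632 to 0.796, against 0.225 to 0.494 between replicates 1 and 2. None of 9 proximal tubule markers reached 4 on any array, whereas all 8 genes of an epithelial list passed the filter, 7 of them at 4 or above on all arrays. That list also holds VIM (13.5 to 14.2), which mesenchymal cells express, and CDH2, and the exception was the epithelial cadherin CDH1 (3.05 to 9.23). Of 3 podocyte genes on the array, PODXL (3.96 to 4.95) and SYNPO (4.27 to 6.06) passed. Of the fibroblast genes, 4 of 5 passed (COL1A1, COL3A1, DCN and LUM), while endothelial, leukocyte and distal nephron genes stayed below 4 throughout. As a measure of RNA quality, ACTB probe sets at the 3-prime end exceeded those at the 5-prime end by 0.73 to 1.1 on CsA arrays and 0.67 to 1.21 on control arrays. For GAPDH this difference was -0.16 to -0.1 on CsA arrays and -0.17 to 0.04 on control arrays. A level in bulk RNA cannot tell fewer cells of a kind from less RNA per cell.

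With CsA against control, no member passed the test at any single time or in the average of the 3 times. limma (Benjamini-Hochberg over all 10717 genes, no replicate block) called 0 of 9 members at 12 h, where 0% of all genes were called, 0 of 9 at 24 h (0%), 0 of 9 at 48 h (0.439%) and 0 of 9 in the average (0.084%). At an unadjusted p under 0.05 the counts of members were 0, 1, 0 and 2, against 98, 406, 1719 and 1312 of all 10717 genes. The signs changed with time: 4, 2 and 7 of the 9 differences were positive at 12, 24 and 48 h, against 46.7, 48 and 50.2% of all genes. The member medians were -0.02, -0.24 and 0.27 on the log2 scale, against -0.01, -0.01 and 0.00 over all genes. The change of the CsA effect over time was not called for any member (limma F test, 0 of 9 members and 0.0373% of all genes, with 0 members and 372 genes at an unadjusted p under 0.05). The blocked fit also called 0 of 9 (0.028% of all genes), while 3 members and 1121 of all genes had an unadjusted p under 0.05.

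The same-numbered arrays of different groups deviated together from their group means, so the replicate numbers were also used as a block. In that fit limma called 0 of 9 members at 12 h (0% of all genes), 0 of 9 at 24 h (0.00933%), 1 of 9 at 48 h (10.8%), and 2 of 9 in the average (4.61%). The count at 48 h is close to the share of all genes. The gene called at 48 h was TP53I3, and those called in the average were TP53I3 and GADD45A. The blocked counts at an unadjusted p under 0.05 were 1, 3, 5 and 2 members, against 259, 1009, 3014 and 2423 of all 10717 genes.

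Agreement of the pairs was counted without a test. At 12 h the 3 pairs were all positive for MDM2 (18.9% of all genes) and all negative for TP53INP1, XPC and TP53I3 (20.6%). At 24 h they were all positive for MDM4 and GADD45A (22%) and all negative for XPC, DDB2 and TP53I3 (23.3%). At 48 h they were all positive for MDM4, GADD45A and XPC (25.7%) and all negative for DDB2 and TP53I3 (26.2%). These counts of 1 to 3 of 9 members lie near the shares of all genes. No member had all 9 pairs positive (3.47% of all genes). The groups did not overlap for 0 of 9 members at 12 h (3.26% of all genes higher and 3.1% lower) and 0 of 9 at 24 h (4.57% higher and 5.12% lower). At 12 h no member had pair 1 opposite in sign to both other pairs (9.03% of all genes with pair 1 negative, 11.4% with pair 1 positive).

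**Figure D1:**
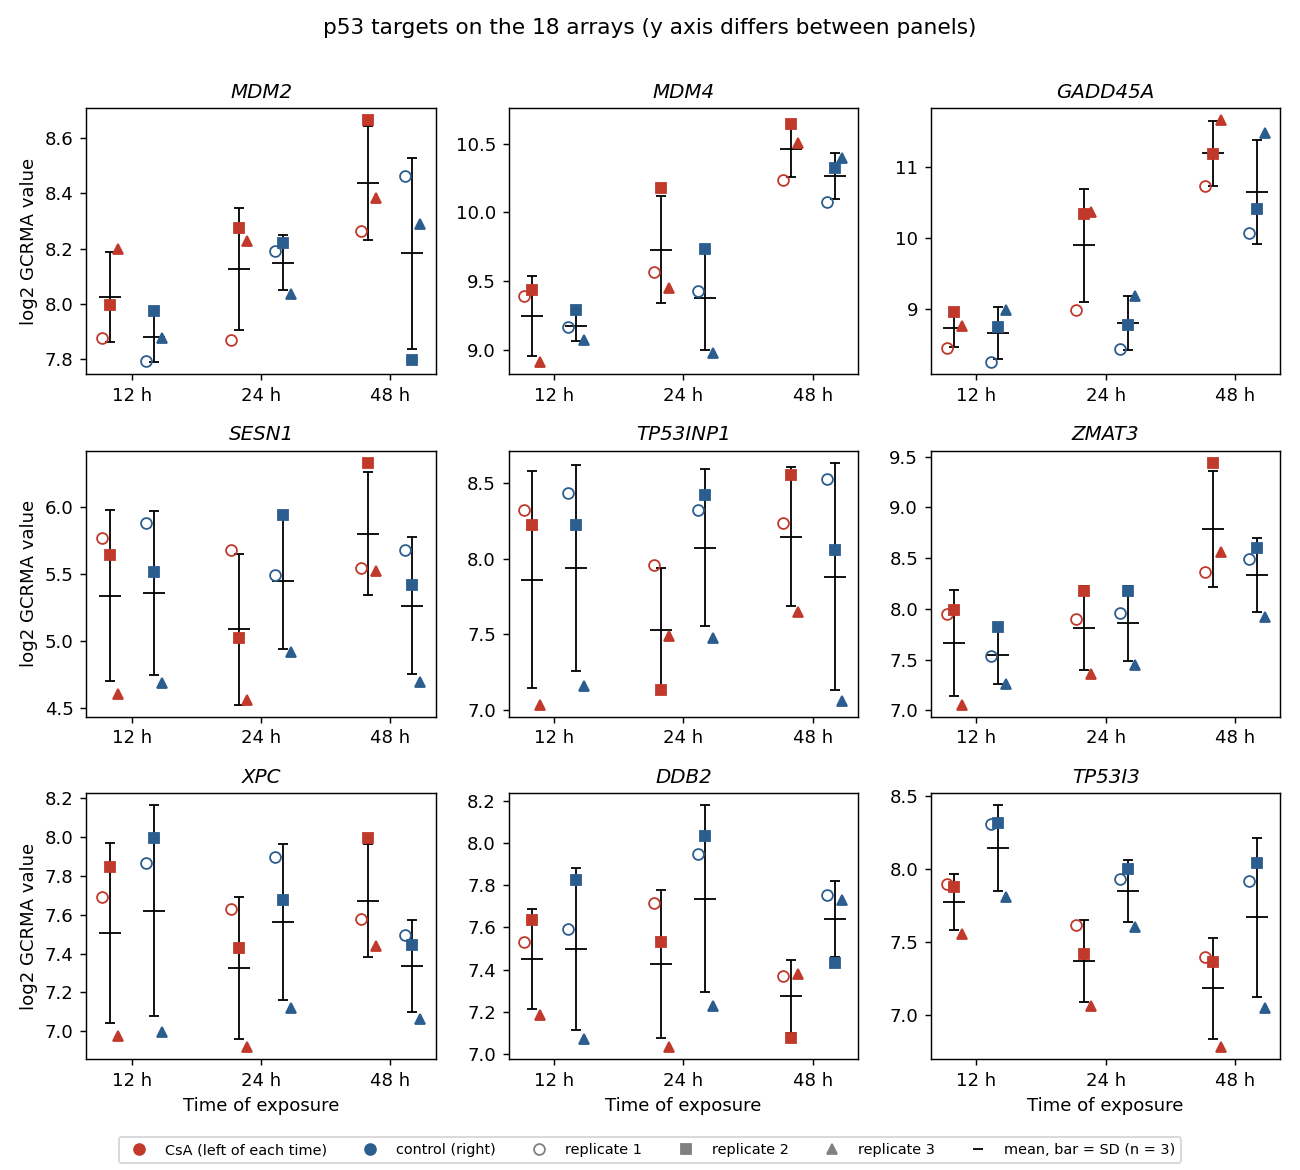
Log2 GCRMA value of the 9 genes (y axis, its range differs between panels) on the 18 arrays by time (x axis), CsA left and control right of each time; circles are replicate 1, squares replicate 2, triangles replicate 3, and bars show the mean and SD of 3 arrays. GADD45A and MDM4 lie highest at 48 h in both treatments, and TP53I3 lies lower with CsA in every pair.

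TP53I3 encodes a quinone oxidoreductase that p53 induces and that is linked to reactive oxygen. At 12 h it was 7.90, 7.88 and 7.56 in CsA replicates 1 to 3, against 8.31, 8.32 and 7.80 in control replicates 1 to 3. At 48 h it was 7.40, 7.37 and 6.78 with CsA, against 7.92, 8.04 and 7.05 in control. Every CsA array was below its own control array in all 9 pairs, a pattern that 4.42% of all genes showed, but the groups overlapped at each time because both arrays of replicate 3 were low. The average difference was -0.44 ± 0.15 (SE, no block; 95% interval -0.76 to -0.12; adjusted p = 0.238) and -0.44 ± 0.07 with the block (adjusted p = 0.0109), or 0.735 of the control level. At 48 h the blocked difference was -0.49 ± 0.12 (adjusted p = 0.0259, against 0.391 without the block). Lower calls made up 5.96% of all genes at 48 h in the blocked fit. The blocked call at 48 h was lost when any of 4 arrays was left out: CsA replicate 2 (adjusted p = 0.103), CsA replicate 3 (0.0705), control replicate 1 (0.105) or control replicate 2 (0.0609), all at 48 h. It was also lost without all arrays of replicate 1 (limma adjusted p = 0.192), replicate 2 (0.213) or replicate 3 (0.0531). The blocked call in the average held without any single array, and was lost without all arrays of replicate 1 (adjusted p = 0.109) or replicate 2 (adjusted p = 0.178).

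GADD45A encodes a stress protein that binds PCNA and CDK1 and takes part in growth arrest and repair. At 12 h it was 8.45, 8.96 and 8.76 in CsA replicates 1 to 3, against 8.25, 8.74 and 8.98 in control. At 24 h it was 8.98, 10.33 and 10.37 with CsA, against 8.43, 8.78 and 9.18 in control. At 48 h it was 10.73, 11.18 and 11.65 with CsA, against 10.07, 10.40 and 11.47 in control. The CsA array was above its control in every pair at 24 and 48 h, by 0.55, 1.56 and 1.19 in pairs 1 to 3 at 24 h, yet the groups overlapped at each time. The difference at 24 h was 1.10 ± 0.41 (SE, a linear ratio of 2.14; adjusted p = 0.999 without the block and 0.122 with it). The average over times was 0.57 ± 0.24 (adjusted p = 0.344), and 0.57 ± 0.13 with the block (adjusted p = 0.0295). Leaving out single arrays kept the blocked call in 9 of 18 cases, with adjusted p between 0.0144 and 0.0788. It was lost without all arrays of replicate 1 (adjusted p = 0.129), replicate 2 (0.32) or replicate 3 (0.0649). Among single arrays it was lost without CsA replicates 1 or 2 at 12 h, CsA replicate 2 at 24 h, CsA replicate 2 at 48 h, control replicates 2 or 3 at 12 h, control replicates 2 or 3 at 24 h, or control replicate 1 at 48 h.

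MDM2 and MDM4 hold p53 in check. MDM2 at 48 h was 8.26, 8.66 and 8.38 in CsA replicates 1 to 3, against 8.46, 7.80 and 8.29 in control. Control replicate 2 was the lowest of the 6 and the groups overlapped; the difference was 0.26 ± 0.17 (SE; adjusted p = 0.527, 95% interval -0.11 to 0.62). MDM4 at 24 h was 9.56, 10.17 and 9.45 with CsA, against 9.43, 9.73 and 8.98 in control. MDM4 at 48 h was 10.24, 10.64 and 10.51 with CsA, against 10.08, 10.32 and 10.39 in control. All 3 pairs of MDM4 were positive at both times, with overlapping groups and differences of 0.35 ± 0.22 (adjusted p = 0.999) and 0.20 ± 0.22 (adjusted p = 0.745).

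SESN1, TP53INP1 and ZMAT3 act in stress handling: SESN1 encodes a sestrin that limits mTORC1, TP53INP1 encodes a regulator of autophagy and cell death, and ZMAT3 encodes an RNA-binding zinc finger protein. SESN1 at 24 h was 5.68, 5.03 and 4.56 in CsA replicates 1 to 3, against 5.50, 5.94 and 4.92 in control. SESN1 at 48 h was 5.55, 6.33 and 5.52 with CsA, against 5.68, 5.42 and 4.69 in control. The CsA minus control difference of SESN1 was -0.37 ± 0.42 at 24 h (adjusted p = 0.999) and 0.54 ± 0.42 at 48 h (adjusted p = 0.612), neither called. ZMAT3 at 48 h was 8.36, 9.44 and 8.56 with CsA, against 8.49, 8.60 and 7.92 in control. Its highest array was CsA replicate 2, the groups overlapped, and the difference was 0.45 ± 0.33 (adjusted p = 0.584). TP53INP1 at 24 h was 7.96, 7.13 and 7.49 with CsA, against 8.32, 8.42 and 7.48 in control. CsA replicate 2 was the lowest of those 6 arrays, and the difference of -0.55 ± 0.46 was not called (adjusted p = 0.999). At 48 h TP53INP1 was 8.24, 8.56 and 7.65 with CsA, against 8.53, 8.06 and 7.06 in control, a difference of 0.27 ± 0.46 (adjusted p = 0.868).

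XPC and DDB2 encode DNA damage sensors of nucleotide excision repair. XPC at 48 h was 7.58, 7.998 and 7.44 in CsA replicates 1 to 3, against 7.50, 7.45 and 7.06 in control. All 3 pairs were positive at 48 h, and all 3 were negative at 12 and at 24 h; the difference at 48 h was 0.34 ± 0.31 (adjusted p = 0.673). DDB2 at 48 h was 7.37, 7.07 and 7.38 with CsA, against 7.75, 7.43 and 7.73 in control. It was the only member whose groups did not overlap at a time, with every CsA array below every control array, as for 6.77% of all genes. The difference was -0.36 ± 0.25 (adjusted p = 0.532) and was not called with the block either (adjusted p = 0.252). These partners in lesion detection had differences of opposite sign at 48 h, neither of them called.

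Pair 1 is shown apart. At 48 h, 3 of the 9 differences were positive in pair 1 (median log2 difference -0.13), against 7 of 9 in pair 2 (median 0.55) and 7 of 9 in pair 3 (median 0.18). Over all genes 48.2, 54.4 and 45.6% were positive in pairs 1 to 3, with medians of -0.01, 0.03 and -0.04. MDM2, SESN1, TP53INP1 and ZMAT3 were negative in pair 1 and positive in pairs 2 and 3, a pattern of 4 of 9 members and 7.21% of all genes, counted after the values were seen. ZMAT3 differed by -0.12 in pair 1, 0.84 in pair 2 and 0.64 in pair 3. SESN1 differed by -0.13 in pair 1, 0.91 in pair 2 and 0.83 in pair 3. Both are named here for their opposite sign in pair 1, so leaving that pair out raises their difference by construction. Without it the blocked fit called 312 genes at 48 h, among them SESN1 (0.87, adjusted p = 0.037) and ZMAT3 (0.74, adjusted p = 0.0335), and did not call TP53I3 (-0.47, adjusted p = 0.192). The fit without the block called neither SESN1 (adjusted p = 0.73) nor ZMAT3 (adjusted p = 0.772) when pair 1 was left out. Each pair at a single time is 1 array per treatment, so a difference between pairs could not be tested there. Over the 3 times together, limma called a CsA effect that differed by replicate number for 0 of 9 members (0% of all genes; 0 members and 97 genes at an unadjusted p under 0.05). ACTB 3-prime minus 5-prime values at 48 h were 0.959, 1.10 and 0.777 in CsA replicates 1 to 3, and 1.21, 0.714 and 0.780 in control. Those of GAPDH were -0.157, -0.144 and -0.112 in CsA replicates 1 to 3, and -0.166, 0.0351 and -0.141 in control. The part of these values in the pair differences was not tested. At 24 h only MDM2 was negative in pair 1 and positive in the others (6.45% of all genes), and only SESN1 the reverse (8.41%).

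**Figure D2:**
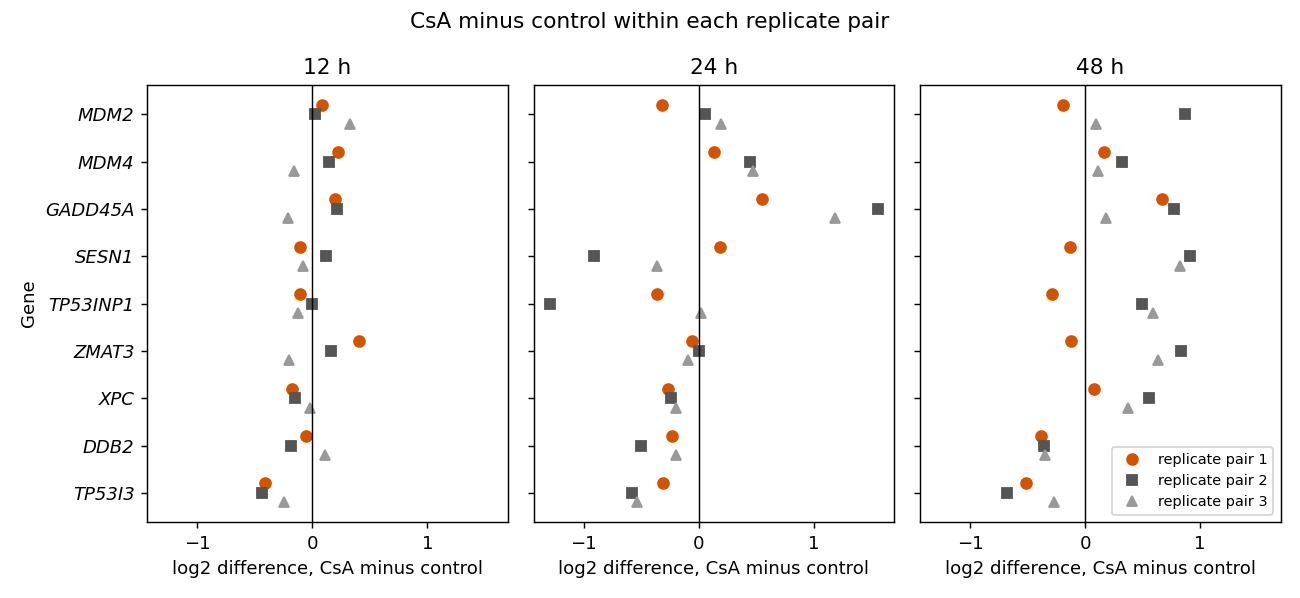
CsA minus control difference (x axis, log2) of each gene (y axis) within replicate pairs at 12, 24 and 48 h, with pair 1 as orange circles, pair 2 as dark squares and pair 3 as grey triangles. At 48 h, SESN1, TP53INP1, ZMAT3 and MDM2 lie left of 0 in pair 1 and right of 0 in pairs 2 and 3, and TP53I3 lies left of 0 in all 9 pairs.

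Replicate 3 differed from the other replicates in level for most members, with and without CsA. SESN1, XPC and TP53I3 had their lowest value in replicate 3 in all 6 groups, as did 14.8% of all genes. For 5 of 9 members replicate 3 was below the mean of replicates 1 and 2 in all 6 groups, against 22.5% of all genes. SESN1 averaged 4.83 in replicate 3 and 5.66 in replicates 1 and 2, TP53INP1 7.31 and 8.20, XPC 7.08 and 7.71. GADD45A lay the other way, averaging 10.07 in replicate 3 and 9.44 in replicates 1 and 2, and it was highest in replicate 3 in 5 of 6 groups. These counts were made after the values were seen and carry no test.

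**Figure D3:**
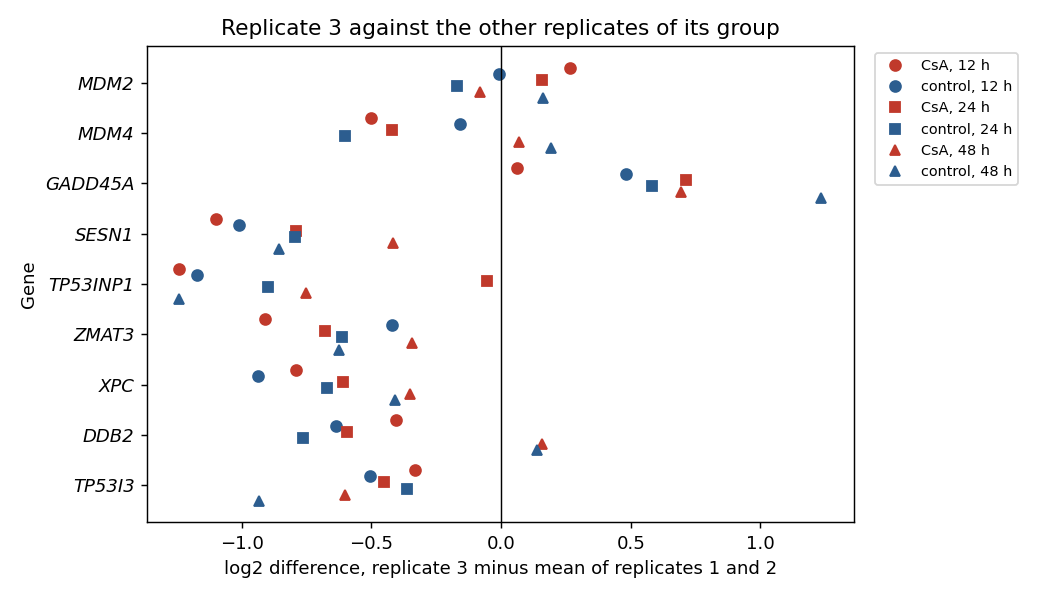
Difference of replicate 3 from the mean of replicates 1 and 2 of its group (x axis, log2) for each gene (y axis), CsA in red and control in blue, circles for 12 h, squares for 24 h and triangles for 48 h. SESN1, TP53INP1, ZMAT3, XPC and TP53I3 lie left of 0 in all 6 groups, and GADD45A lies right of 0 in all 6.

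More members were called over time than with CsA, in both treatments, and so were more of all genes. The counts of members below lie near or somewhat above the shares of all genes. limma F tests called 3 of 9 members over time in CsA arrays, where 28.3% of all genes were called: GADD45A (adjusted p = 0.00155), MDM4 (0.00271) and ZMAT3 (0.0356). In control arrays 2 of 9 were called, against 14.2% of all genes: GADD45A (adjusted p = 0.00811) and MDM4 (0.00983). The single contrasts below were added after the values were seen. GADD45A was higher at 48 than at 12 h by 2.47 ± 0.41 in CsA cells (SE; adjusted p = 0.000531) and by 1.99 ± 0.41 in control cells (adjusted p = 0.00606). MDM4 was higher at 48 than at 12 h by 1.22 ± 0.22 in CsA cells (adjusted p = 0.000942) and by 1.09 ± 0.22 in control cells (adjusted p = 0.0056). ZMAT3 was higher by 1.12 ± 0.33 in CsA cells (adjusted p = 0.0187) and had a difference of 0.79 ± 0.33 in control cells (adjusted p = 0.114). With the replicate block 5 of 9 members were called over time in CsA arrays (47.3% of all genes) and 4 of 9 in control arrays (33.5%). GADD45A, MDM4, ZMAT3 and TP53I3 were called in both treatments, and SESN1 in CsA arrays (adjusted p = 0.0491). ZMAT3 in control cells was thus called with the block (F test adjusted p = 0.00875, against 0.259 without it), with an adjusted p of 0.0032 for 48 minus 12 h. The 48 minus 12 h difference of TP53I3 with the block was -0.59 ± 0.12 in CsA cells (adjusted p = 0.00121) and -0.47 ± 0.12 in control cells (adjusted p = 0.00799). The blocked control call of TP53I3 was lost without all arrays of replicate 1 (adjusted p = 0.159), 2 (0.0726) or 3 (0.0742), and its CsA call without those of replicate 1 (0.0501). The blocked control call of ZMAT3 was lost without replicate 2 (0.093) or 3 (0.0656), and the CsA call of SESN1 without replicate 2 (0.469) or 3 (0.343). Of single arrays, leaving out any control array of 12 h ended the blocked control call of TP53I3, and the blocked CsA call of SESN1 held in 3 of 18 cases. Single libraries also mattered in the fit without the block: there the CsA call of ZMAT3 was lost without CsA replicate 3 at 12 h (adjusted p = 0.0592), replicate 1 at 24 h (0.0514), or replicates 2 (0.227) or 3 (0.059) at 48 h, and without all arrays of replicate 1 (0.149), 2 (0.219) or 3 (0.0572). It was also lost with the mean of its probe sets (adjusted p = 0.0585) and with no filter on level (0.0792). Also without the block, MDM4 was not called in CsA arrays without replicate 1 (adjusted p = 0.0566), nor in control arrays without replicate 1 (0.156), replicate 2 (0.0688) or control replicate 2 at 48 h (0.0531). In the same fit without all arrays of replicate 2, GADD45A was not called in CsA (adjusted p = 0.0783) or control arrays (adjusted p = 0.17). With the block, GADD45A and MDM4 were called over time in both treatments whichever number was left out, at adjusted p of at most 0.019.

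The members have 29 probe sets, of which 19 passed the filter. ZMAT3 has 5 and all gave a positive difference at 48 h, from 0.45 to 0.65. At 12 h, 2 of them were negative. MDM4 has 6, of which the 5 that passed had positive differences at 48 h, from 0.20 to 1.01. The brightest was the smallest of these. 1 of the 5 averaged 3.23 over all arrays and only just passed, with a highest group mean of 4.07. A filter on the highest group favours a difference in such a probe set, so its sign is not a check. For MDM2, 3 of 10 passed, with differences of 0.09 to 0.26 at 48 h. The other members had 1 probe set that passed, so no check was possible for them.

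Other genes of the pathway were counted in lists chosen with earlier results known, and without the block limma called none of them at any time or in the average. At an unadjusted p under 0.05 the unblocked counts at 48 h were 2 of 12 arrest and feedback targets, 3 of 12 cell death targets, 4 of 15 repair and other targets, 1 of 16 regulators, 4 of 24 repair partners and 0 of 6 paralogs, against 1719 of all 10717 genes. With the block, at 48 h, 2 of 12 tested arrest and feedback targets were called, against 10.8% of all genes in either direction. Both were higher, and 4.8% of all genes were called higher. CDKN1A, the p21 inhibitor of cyclin-dependent kinases, was 9.65, 10.47 and 10.47 in CsA replicates 1 to 3, against 8.54, 9.43 and 9.59 in control. All CsA arrays of CDKN1A were above all control arrays, as for 8.25% of all genes, and the difference was 1.01 ± 0.21 (SE with the block; adjusted p = 0.0152, and 0.0828 without it). TIGAR, a fructose-bisphosphatase that lowers glycolytic flux, differed by 0.37 ± 0.09 (adjusted p = 0.0206). PLK2, a polo-like kinase, had one of the larger differences, -0.86 ± 0.63, and was not called (adjusted p = 0.406).

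Of 12 tested cell death targets, 2 were called at 48 h with the block, against 10.8% of all genes in either direction. Both were lower with CsA, and 5.96% of all genes were called lower. FAS, a death receptor, differed by -0.86 ± 0.21 (adjusted p = 0.0269), and APAF1, the core of the apoptosome, by -0.79 ± 0.20 (adjusted p = 0.0292). FAS was 9.38, 8.80 and 8.65 with CsA, against 9.96, 9.78 and 9.68 in control. The median of the 12 was 0.14, above that of all genes (0.00), and 8 of the 12 differences were positive. Of 15 tested repair and other targets, 3 were called in that fit, against 10.8% of all genes in either direction: CCDC90B (0.44, adjusted p = 0.0322) and PLTP, a phospholipid transfer protein (0.49, adjusted p = 0.0285), were higher, and HSPA4L, a chaperone, was lower (-0.41, adjusted p = 0.0359). NINJ1, a membrane protein, differed by 0.61 and was not called (adjusted p = 0.088).

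Among 16 tested regulators of p53, 1 was called with the block at 48 h, against 10.8% of all genes: the checkpoint kinase CHEK1, which was lower (-0.67 ± 0.18, adjusted p = 0.0344). PML, a nuclear body protein, differed by -0.31 ± 0.23 (adjusted p = 0.42). Among 24 tested partners of XPC and DDB2 in nucleotide excision repair, 3 were called, beside the same 10.8% of all genes. ERCC1, a subunit of the incision nuclease, was higher by 0.42 ± 0.12 (adjusted p = 0.0374), and RPA2 and RPA3, subunits of the single-strand binding protein, were lower (-0.68 ± 0.14, adjusted p = 0.0156, and -0.48 ± 0.14, adjusted p = 0.042). ERCC4, the other subunit of that nuclease, differed by 0.65 ± 0.24 and was not called (adjusted p = 0.101). Of 6 tested paralogs of members none was called; SESN2 differed by 0.36 (adjusted p = 0.444) and GADD45B by -0.27 (adjusted p = 0.421). In the average over times the block called 4.61% of all genes. Among listed genes it called 1 of 12 arrest and feedback targets, 2 of 15 repair and other targets and 1 of 24 repair partners. None of the 12 cell death targets, 16 regulators or 6 paralogs was called. The called genes were CDKN1A (0.47, adjusted p = 0.046, against 2.11% of all genes called higher), CCDC90B (0.28, adjusted p = 0.0368), HSPA4L (-0.30, adjusted p = 0.0252) and RPA2 (-0.33, adjusted p = 0.0456).

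**Figure D4:**
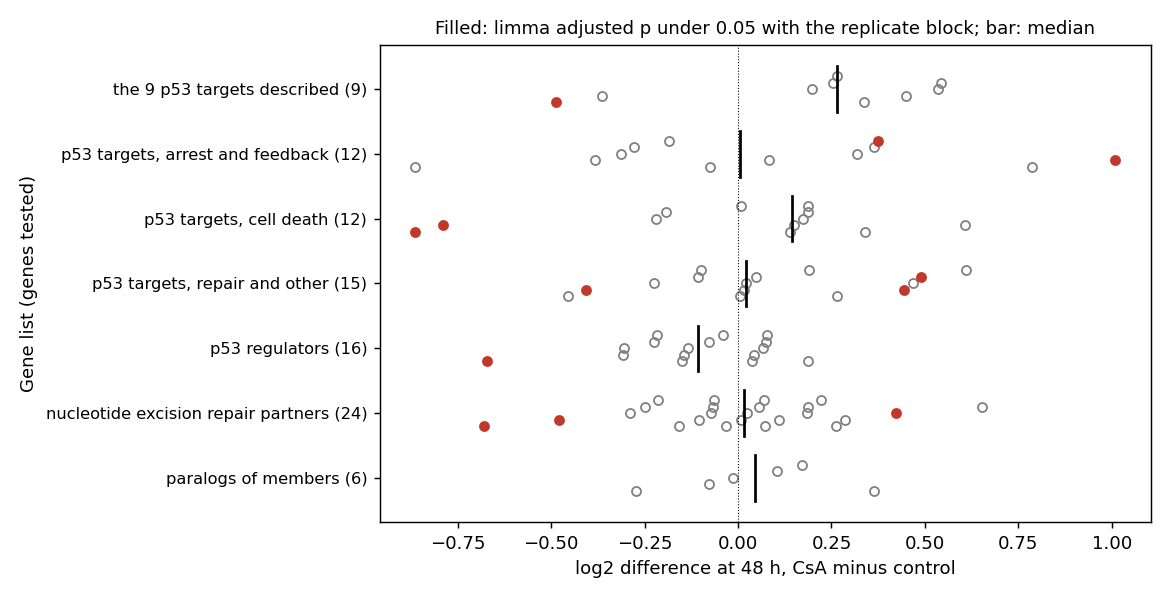
CsA minus control difference at 48 h (x axis, log2) of each tested gene of 7 lists (y axis, number tested in brackets); filled points passed the adjusted p threshold with the replicate block, and the bar is the list's median. CDKN1A lies farthest right and FAS among the farthest left, and 1 of the 9 members, TP53I3, is filled.

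The genes whose 9 pair differences were most like a member's were found by cosine, where 1 means the same pattern up to scale. For TP53I3 these were HNRNPAB (0.986) and PANX1 (0.982), and 116 genes exceeded 0.9. For GADD45A they were SCARB2 (0.966) and PALLD (0.965), with 43 genes above 0.9. MDM4 was closest to SCARB2 (0.968) and then to GADD45A (0.953). For DDB2 they were LSM3 (0.975) and SPC25 (0.972), with 157 genes above 0.9. SESN1 and TP53INP1 had few such genes, 2 and 1. The 9 differences share arrays with the tests above, so this likeness is a description.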

How the data were processed

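Per the submitters' processing notes, the deposited log2 values were made with GCRMA (no version given); the base was taken from their range and is not written in a label. GCRMA compresses values near background. The sources used here do not state which arrays were normalised together. Of 54675 probe sets, 41091 had 1 symbol. Array medians were 2.86 to 2.92, and the number of arrays limits the precision. limma 3.58.1 (R 4.3.3) was fitted to all 18 arrays with a term per group, with Benjamini-Hochberg adjustment over 10717 genes and a threshold of 0.05; errors are standard errors unless called SD.

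The main fit had no replicate block. Deviations of same-numbered arrays correlated at 0.277 to 0.942, and the numbers were taken to pair the arrays. Correlations between arrays of different numbers are not given beside these, so this range alone does not show the pairing. A first check on array levels put 14 of 18 arrays closest to their own number. The check on deviations from group means, used after that result was seen, put 18 of 18 there. The labels call the replicates biological and do not say that numbers were handled together.

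Members and lists were chosen with earlier results of these data known. All members are named. Of each other list, genes called in either fit (at most 6) and the 2 largest differences at 48 h are named. Single contrasts between times, counts of pair 1 against pairs 2 and 3, counts for replicate 3 and the promoter search were added after values were seen. Some listed genes were not analysed here. The fit was also run on simulated data whose spread and replicate effects differ from those of these arrays. Its outcome is not given here, and it is no check of the calls above. Tables and figures used Python 3.11.15 with pandas 2.3.3 and matplotlib 3.10.9.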

Additional observations from a re-analysis of the deposited data

Results flagged for a closer look

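XPC, the damage sensor of nucleotide excision repair, had a CsA minus control difference that was negative in all 3 pairs at 12 and at 24 h and positive in all 3 pairs at 48 h. The members were searched for such a reversal, and the share of all genes with it was not counted. All 3 pairs were negative for 20.6% of all genes at 12 h and 23.3% at 24 h, and positive for 25.7% at 48 h. The XPC differences closest to 0 were -0.02 in pair 3 at 12 h and 0.08 in pair 1 at 48 h. The change in the XPC difference was 0.45 on the log2 scale at 48 against 12 h, and 0.57 at 48 against 24 h. The limma F test of the effect over time did not call it (adjusted p = 1 without the replicate block and 0.436 with it), and these single differences between times were not tested.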

How the results depend on the processing

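The replicate block, which rests on the pairing of replicate numbers, gave 1 called member at 48 h (0 without it), 2 in the average (0), 5 in CsA arrays over time (3) and 4 in control arrays over time (2); it changed no count at 12 or 24 h or in the effect by time. Leaving out an array or all arrays of a number, in either fit, gave 0 to 4 members at 48 h, 0 to 3 in the average, 1 to 6 in CsA arrays over time and 0 to 5 in control arrays over time; the highest count at 48 h came without CsA replicate 1 of that time. No member was called at 12 or 24 h in these settings. The number of all genes called moved too. With the block and all arrays of a number left out, it was 14 to 312 of 10717 genes at 48 h and 2 to 63 in the average. Over time it was 3110 to 3908 in CsA arrays and 1961 to 2479 in control arrays. For single arrays left out the share of all genes is not given here, so those member counts have no background beside them. Outside the leave-out settings, only quantile normalisation and the mean of a gene's probe sets could change a member's CsA difference. The other settings, such as the block or a different filter, left each difference the same by construction. Most of the 306 differences compared were thus fixed in advance, and their number is no measure of stability. Of them 2 changed sign, both small: XPC in the average was 0.006 after quantile normalisation, and ZMAT3 at 12 h was -0.029 with the mean of its probe sets. The cause was not tested. Left-out arrays turned the sign of uncalled differences, which ranged at 12 h from -0.257 to 0.119 for DDB2, -0.137 to 0.294 for GADD45A, -0.058 to 0.237 for MDM4, -0.361 to 0.343 for SESN1, -0.468 to 0.335 for TP53INP1, -0.427 to 0.149 for XPC and -0.041 to 0.424 for ZMAT3. At 24 h they ranged from -0.132 to 0.124 for MDM2 and -0.252 to 0.179 for ZMAT3, and at 48 h from -0.051 to 0.481 for MDM2 and -0.149 to 0.589 for TP53INP1. In the average they ranged from -0.063 to 0.171 for SESN1, -0.261 to 0.017 for TP53INP1 and -0.109 to 0.083 for XPC. TP53I3 stayed negative in all of these at each time. With only the 6 arrays of 48 h and the block, no member was called (TP53I3 limma adjusted p = 0.0732), against 824 of all 10717 genes.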
